A study of Rattus norvegicus with 4 samples.

Results

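The proteasome genes of rat tendon fibroblasts were compared after exposure to PRP or to PPP. The set was formed from every probe set whose only gene symbol began with Psma, Psmb, Psmc, Psmd, Psme, Psmf or Psmg followed by a digit, which gave 46 of the 14824 named probe sets and 45 genes. Of these genes, 39 encode subunits, activators, an inhibitor or assembly factors of the proteasome. The other 6 entered by their symbol and are kept apart: 2 encode other proteins (Psmc3ip and Psme3ip1) and 4 are listed as copies or pseudogenes (Psmb6l1, Psmb3l2, Psma6-ps1 and Psmd1-ps1). Psma8 alone had more than 1 probe set. Psma2, Psma3, Psmc3, Psmd3, Psmd4, Psmd9 and Psmg1 had no probe set with a single symbol. Psme2 and Psme3 shared theirs with other genes. These 9 genes were not analysed here.

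Cells came from the tail tendons of retired breeder rats of the Lewis strain and were held in gels of type I collagen. All cultures first spent 2 days in medium with 10% fetal bovine serum. One group of 2 arrays then received medium without that serum but with 10% clot releasate of PRP, and the other 2 arrays the same with PPP, for 24 hours. PRP and PPP usually stand for platelet-rich and platelet-poor plasma, and are taken so in this text. Neither the plasma donors nor the animals or cultures behind the replicate numbers are given, so a p-value covers no more than the scatter of these 4 arrays, and that scatter may be technical. No untreated culture was analysed here, and a difference does not show which product moved a gene. In these bulk samples fewer cells of a type and less RNA per cell cannot be told apart.

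The proteasome is the protease that degrades most short-lived and damaged cytosolic and nuclear proteins after they have been tagged with ubiquitin. Its barrel-shaped 20S core is built of outer rings of alpha subunits, which gate the entrance, and inner rings of beta subunits, 3 of which carry the protease sites. A 19S cap recognises the ubiquitin chain, removes it and unfolds the substrate with a ring of ATPases. In cells exposed to interferon gamma, and constitutively in leukocytes, the catalytic beta subunits are replaced by the immunoproteasome subunits Psmb8, Psmb9 and Psmb10, and the PA28 activator of Psme1 and Psme2 can take the place of a 19S cap. Proteasome genes are known to be induced together by the transcription factor Nfe2l1 when proteasome activity is too low.

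Differences in proteasome transcripts between PRP and PPP were mostly small, and limma called 1 gene, an assembly factor. With 2 arrays per group, a missing call does not show equal levels. Psmd10, a chaperone of 19S assembly, was the only member that passed, 1.72-fold higher with PRP. Among 46 member probe sets 1 rose and 0 fell at an adjusted p of 0.05 by limma, where 1.85% of all named probe sets were called, 0.83% higher and 1.02% lower. A share of this size is close to the background. At an unadjusted p below 0.05 there were 3 members, against 16.3% of all named probe sets. This count depends on the setting: with an intensity trend in limma it was 7 of the 45 genes. The share of all named probe sets under that setting was not counted. The median log2 difference, PRP minus PPP, was 0.063 over the 45 genes and -0.0025 over all 14557 named genes. Of the 45, 35 were positive, and 28 after cyclic loess scaling. Standard errors of single genes had a median of 0.11, which does not measure the error of a median over genes. That error was not estimated.

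The absence of calls can be bounded. Limma's 95% interval of the difference lay wholly within 0.5 on the log2 scale, a change of 1.41-fold, for 37 of the 45 genes. The same held for 56.2% of all named genes and for 73.0% of the 10% with the highest levels. Only the interval of Psmd10 reached past a 2-fold change. These intervals are for single genes and are not adjusted for their number. Differences of the members were also narrow in themselves: 40 of 45 were below 0.25 in size, against 73.8% of all named genes and 79.5% of the 10% with the highest levels. Most members gave high values, with a median at the 94.6th percentile for the proteasome genes proper.

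**Figure D1:**
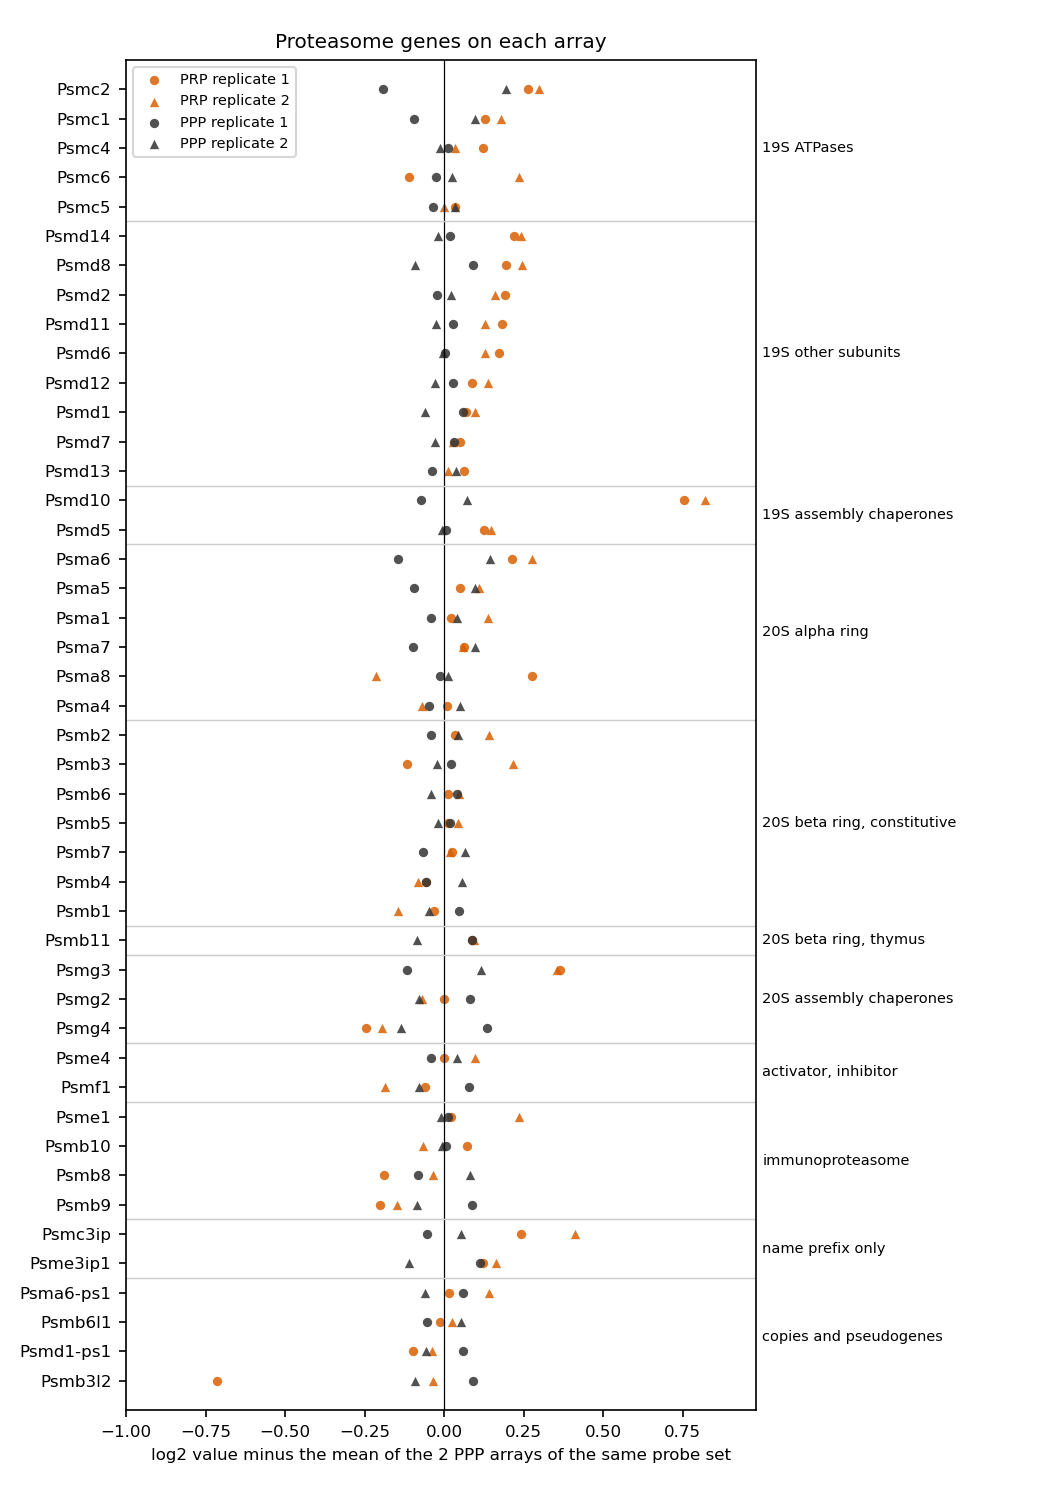
Values of the 45 proteasome genes on each of the 4 arrays, as the log2 value minus the mean of the 2 PPP arrays of the same probe set (x axis), with PRP arrays in orange and PPP arrays in black. Genes are grouped by their place in the complex; both Psmd10 points of PRP stand near 0.79 on average, while most other genes lie close to 0.

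Psmd10, also called gankyrin, escorts the ATPase Psmc4 into the base of the cap, and is known apart from that as a partner of the retinoblastoma protein and of Mdm2 in liver tumours. Its log2 values were 7.82 and 7.89 on the PRP arrays, against 6.995 and 7.14 on the PPP arrays. Both PRP arrays lay above both PPP arrays, with a gap between the groups far larger than that between replicates. The difference was 0.79 on the log2 scale (SE 0.11, 95% interval 0.51 to 1.06, adjusted p 0.0340 by limma). That call ended with any 1 array left out: the adjusted p by limma was 0.198 without PRP replicate 1, 0.234 without PRP replicate 2, 0.175 without PPP replicate 1 and 0.0977 without PPP replicate 2, while the difference stayed between 0.71 and 0.86. In those 4 fits 0.546%, 0.452%, 0.378% and 0.486% of all named probe sets were called. The call also ended with all probe sets fitted (0.00545% of them called) and with the replicate numbers as a block (0.83%). It held with an intensity trend (5.45%), robust eBayes (1.76%), dim probe sets left out (3.04%), arrays centred on their medians (2.52%) and cyclic loess (2.14%).

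Psmd5, the other measured chaperone of the base, had 7.38 and 7.40 on the PRP arrays and 7.26 and 7.25 on the PPP arrays. The groups did not overlap, as in 46.4% of all named probe sets, and the difference of 0.14 (SE 0.10) did not pass (adjusted p 0.579 by limma). Whether the 2 differences differ was not tested.

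The start region of Psmd10 is shown because it is the called gene. RefSeq's GRCr8 table places this window, 250 bases before to 50 after the transcript start, at chrX:109453556-109453855 on the minus strand. Capitals mark CCAAT boxes, the binding motif of the factor NF-Y, on either strand.
Psmd10: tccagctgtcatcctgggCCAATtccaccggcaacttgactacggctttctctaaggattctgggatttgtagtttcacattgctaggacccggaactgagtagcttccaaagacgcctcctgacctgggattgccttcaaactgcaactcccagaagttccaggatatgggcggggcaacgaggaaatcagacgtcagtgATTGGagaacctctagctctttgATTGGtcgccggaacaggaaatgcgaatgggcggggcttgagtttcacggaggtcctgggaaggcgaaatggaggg
It held 3 CCAAT boxes, 2 of them on the opposite strand (read as ATTGG) and starting 49 and 26 bases before the transcript start. The other motifs searched, on both strands, were not among the letters of this window: the core of the antioxidant response element (TGACNNNGC), to which Nfe2l1 and Nfe2l2 bind, the interferon gamma activated site (TTCNNNGAA) and an interferon regulatory factor motif (GAAA, any 2 bases, GAAA). Promoter windows were matched for 37 of the 45 genes. A CCAAT box was present in 17 of these 37, against 37.7% of 27457 windows of all genes, and an antioxidant core in 5, against 12.2%. The interferon regulatory factor motif was present in 6 of 37, against 3.77%, and the activated site in 3, against 8.68%. In 1 case motifs of different kinds overlapped, the CCAAT box and the antioxidant core of Psmb2. A match is a description of letters and shows no binding.

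The 19S cap leaned to higher values with PRP, with no single gene called. All 14 measured ATPases and other 19S subunits had positive differences, from 0.016 to 0.28 with a median of 0.13. Of all named genes 49.4% were positive, and of the 10% with the highest levels 57.5%. After cyclic loess 13 of the 14 were positive. Median centring raises every difference by 0.037, so it could not lower the count. Without PPP replicate 1 there were 12, without either PRP replicate 13, and without PPP replicate 2 14. On 10 of the 14 both PRP arrays lay above both PPP arrays, where this held for 23.9% of all named probe sets and for 35.9% of the 10% of genes with the highest levels. None of the 14 passed limma at an adjusted p of 0.05, without or with an intensity trend (0 and 0). At an unadjusted p below 0.05 there were 0 without the trend, and that count was not made with it. The errors depend on this setting. For the subunit Psmd14 the SE was 0.10 without the trend and 0.061 with it. Its adjusted p by limma was 0.348 without the trend and 0.0677 with it. Subunits of 1 complex measured on the same 4 arrays are not replicates, so the count carries no p.

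Among the ATPases, which unfold the substrate and open the gate of the core, Psmc2 had the largest difference. Its values were 8.68 and 8.71 on the PRP arrays, against 8.22 and 8.60 on the PPP arrays. Most of the difference of 0.28 (SE 0.15, adjusted p 0.432 by limma) came with the low PPP replicate 1, and it was 0.09 without that array. Psmc1 had 8.69 and 8.74 on the PRP arrays and 8.46 and 8.66 on the PPP arrays, again lowest on PPP replicate 1. Psmc5 had 9.17 and 9.13 on the PRP arrays and 9.10 and 9.17 on the PPP arrays, so the groups overlapped. Psmc4 and Psmc6 had differences of 0.08 and 0.06.

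Of 9 other 19S subunits, 7 had both PRP arrays above both PPP arrays. Psmd14, the metalloprotease that cuts the ubiquitin chain off the substrate, had 9.40 and 9.43 on the PRP arrays, against 9.20 and 9.17 on the PPP arrays. Its replicates lay closer together than the groups, yet the difference of 0.23 (SE 0.10) missed the threshold with an adjusted p of 0.348 by limma. Psmd8, a subunit of the lid, had 7.15 and 7.20 on the PRP arrays and 7.05 and 6.87 on the PPP arrays. Its difference of 0.22 was 0.13 without PPP replicate 2. Psmd2, a scaffold that binds shuttle proteins carrying ubiquitinated substrates, had a difference of 0.18, and Psmd11, Psmd6, Psmd12 and Psmd1 had 0.15, 0.15, 0.11 and 0.08. Psmd13, a lid subunit with the smallest difference of the group (0.04), had 8.86 and 8.81 on the PRP arrays and 8.76 and 8.84 on the PPP arrays, which overlap. Psmd7, also of the lid, differed by 0.04. For 7 of the 9 the lowest array was PPP replicate 2, whereas for 3 of the 5 ATPases it was PPP replicate 1.

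**Figure D2:**
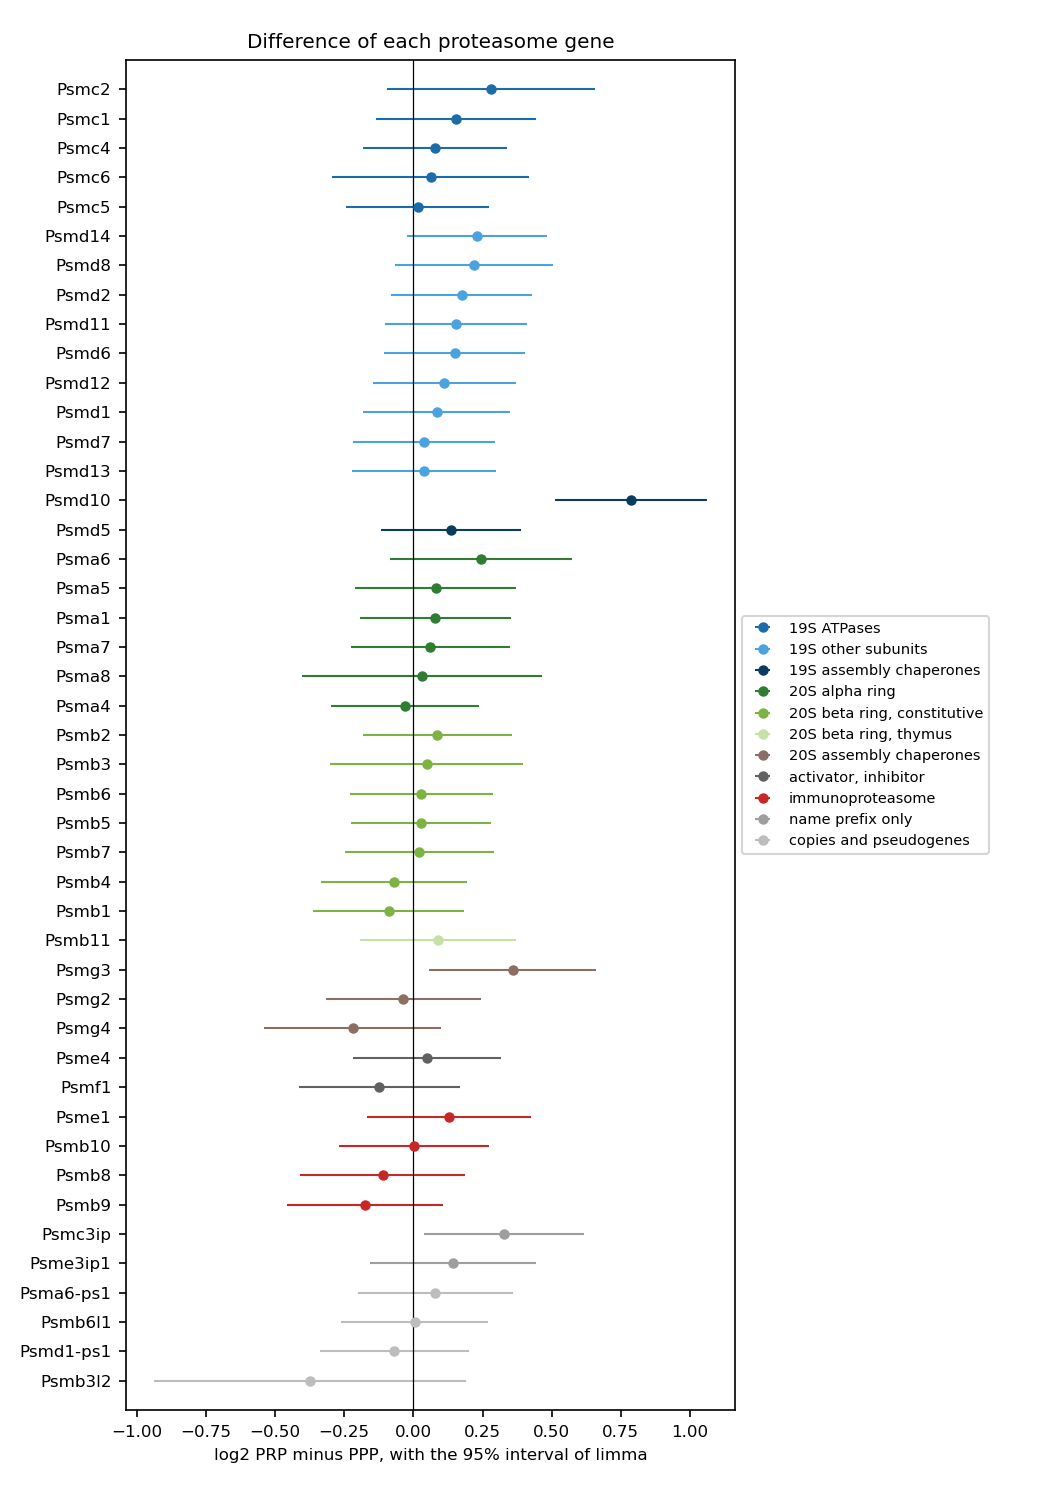
Difference of each gene, log2 PRP minus PPP (x axis), as a point with limma's 95% interval as a bar, coloured by group. The interval of Psmd10 runs from 0.51 to 1.06 and those of all 14 subunits of the 19S cap include 0 with their points to its right.

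The rings of the 20S core showed smaller differences. Of 13 measured alpha and constitutive beta subunits 10 had positive differences, with a median of 0.031. The count was 7 after cyclic loess and 7 without PPP replicate 1. In 1 of the 13 both PRP arrays lay above both PPP arrays and in 1 both lay below, against 23.9% and 22.5% of all named probe sets. None passed limma at an adjusted p of 0.05 or at an unadjusted p below 0.05. The difference between cap and core was not tested.

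In the alpha ring Psma6 had 9.81 and 9.87 on the PRP arrays, against 9.45 and 9.74 on the PPP arrays. The difference of 0.24 (SE 0.13, adjusted p 0.437 by limma) shrank to 0.10 without PPP replicate 1. Psma5 had 9.54 and 9.60 on the PRP arrays and 9.40 and 9.59 on the PPP arrays. Psma4, whose difference of -0.03 was the lowest of the ring, had 8.99 and 8.92 on the PRP arrays and 8.94 and 9.03 on the PPP arrays. PPP replicate 1 was the lowest array for 4 of the 6 genes of this ring. Psma1 and Psma7 had differences of 0.08 and 0.06. Psma8, an alpha subunit known from the testis, was near the low end of the scale on every array, at 2.84 and 2.35 with PRP and 2.55 and 2.57 with PPP, and its other probe set was lower still, between 1.67 and 1.87. Such values cannot be told from background.

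The catalytic beta subunits of the standard core hardly differed. Psmb5, which cuts after hydrophobic residues, had 8.52 and 8.55 on the PRP arrays and 8.52 and 8.49 on the PPP arrays. Psmb6, which cuts after acidic residues, had 9.31 and 9.34 on the PRP arrays and 9.34 and 9.26 on the PPP arrays. Psmb7, which cuts after basic residues, had 9.32 and 9.31 on the PRP arrays and 9.22 and 9.36 on the PPP arrays. All 3 overlapped between groups, with differences of 0.03, 0.03 and 0.02. Their 95% intervals lay between -0.25 and 0.29, so a change as large as that of Psmd10 lies outside them.

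The differences of the non-catalytic beta subunits lay between -0.09 and 0.09, and none passed limma. Psmb2 had the largest difference of this ring, with 8.95 and 9.06 on the PRP arrays and 8.87 and 8.96 on the PPP arrays. Psmb3 had 6.81 and 7.14 on the PRP arrays and 6.95 and 6.91 on the PPP arrays, a spread of the PRP arrays that held both PPP values. Psmb1 had the lowest difference, with 9.61 and 9.50 on the PRP arrays and 9.69 and 9.60 on the PPP arrays. Psmb4 had -0.07. Psmb11, the beta subunit of thymic epithelium, was low throughout, at 3.13 and 3.13 with PRP and 3.13 and 2.95 with PPP.

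The immunoproteasome subunits showed no common direction. Of the 5, 4 were measured, 2 had positive and 2 negative differences (1 and 3 after cyclic loess), and the median was -0.054, against 0.079 for the other members and -0.0025 for all named genes. Limma called 0 of the 4 at an adjusted p of 0.05, 0 at an unadjusted p below 0.05 and 0 with an intensity trend. Psmb9, the counterpart of Psmb6, had 5.26 and 5.31 on the PRP arrays, against 5.55 and 5.38 on the PPP arrays. Both PRP arrays lay below both PPP arrays, as in 22.5% of all named probe sets. The difference of -0.17 (SE 0.12) had an adjusted p of 0.520 by limma. Psmb8, the counterpart of Psmb5, had 3.33 and 3.48 on the PRP arrays and 3.43 and 3.59 on the PPP arrays, overlapping and low on all of them. Psmb10, the counterpart of Psmb7, had 5.73 and 5.59 on the PRP arrays and 5.66 and 5.65 on the PPP arrays. Psme1, the alpha subunit of PA28, had 6.15 and 6.37 on the PRP arrays and 6.14 and 6.12 on the PPP arrays, and PRP replicate 2 alone stood clear of the other arrays. The difference of Psme1 was 0.13, and 0.02 without that array, while that of Psmb9 was -0.09 without PPP replicate 1. The intervals of these 4 genes lay between -0.46 and 0.42.

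Markers of the cells that could be present were measured beside these, and moved in both directions. Of 10 measured tendon fibroblast markers limma called 2, both lower with PRP (Fmod and Tnmd), where 1.85% of all named probe sets were called. At an unadjusted p below 0.05 there were 8 of the 10, against 16.3%, and with an intensity trend 7 were called, against 5.45%. Dcn and Pdgfra had positive differences of 0.56 and 0.55 with groups that did not overlap (adjusted p 0.0709 and 0.0713 by limma). Col1a1 was high on all arrays, at 9.48 and 9.43 with PRP and 10.21 and 10.02 with PPP.

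Of 10 measured leukocyte markers 3 had positive and 7 negative differences, with a median of -0.10. At an unadjusted p below 0.05 there were 4, against 16.3% of all named probe sets. Limma called 1 of the 10, where 1.85% of all named probe sets were called. This was Coro1a, which had 3.36 and 3.46 on the PRP arrays, against 4.24 and 4.70 on the PPP arrays. Tyrobp had a difference of -0.87 (adjusted p 0.0559 by limma), and Fcer1g and Cd14 had 0.55 and 0.39. With an intensity trend 2 were called, Coro1a and Tyrobp, against 5.45% of all named probe sets. Ptprc, the defining leukocyte marker, was low on every array, at 2.09 and 2.18 with PRP and 2.34 and 2.06 with PPP. Of 4 measured platelet markers 1 rose, Pf4, and of 4 endothelial markers 0 passed by limma, with 1 at an unadjusted p below 0.05 and 0 with an intensity trend. With 1 array left out the adjusted p by limma reached 0.248 for Coro1a and 0.0742 for Tnmd, which ended those calls. The part of these markers in the values of the immunoproteasome was not tested.

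The start regions of Psmb5 and of Psmb8 are set side by side because they are the standard and the immune form of the same catalytic subunit. RefSeq's GRCr8 table gives these windows at chr15:32047330-32047629 and chr20:4656982-4657281, both on the minus strand. Capitals mark any of the 4 motifs.
Psmb5: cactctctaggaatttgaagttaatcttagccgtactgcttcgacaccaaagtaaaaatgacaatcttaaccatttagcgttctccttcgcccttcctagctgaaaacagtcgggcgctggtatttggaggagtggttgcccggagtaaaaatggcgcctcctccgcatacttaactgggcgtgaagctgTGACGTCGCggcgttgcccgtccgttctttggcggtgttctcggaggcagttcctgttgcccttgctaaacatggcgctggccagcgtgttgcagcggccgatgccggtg
Psmb8: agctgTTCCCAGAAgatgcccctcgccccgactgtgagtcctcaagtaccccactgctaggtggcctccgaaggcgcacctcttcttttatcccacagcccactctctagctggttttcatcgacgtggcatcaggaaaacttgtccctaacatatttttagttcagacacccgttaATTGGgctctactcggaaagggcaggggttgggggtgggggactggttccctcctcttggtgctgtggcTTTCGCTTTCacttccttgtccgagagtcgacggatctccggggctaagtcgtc
The window of Psmb5 held an antioxidant core starting 60 bases before the transcript start. Psmb8 held an interferon regulatory factor motif across its start, an interferon gamma activated site at 245 bases before it and a CCAAT box. Among the 4 measured immunoproteasome genes 2 held the interferon regulatory factor motif (Psmb8, and Psmb10 with 2 matches) and 0 the antioxidant core. Of 30 other proteasome genes with a window, 4 held the interferon regulatory factor motif and 5 the antioxidant core. Over the windows of all genes the shares were 3.77% and 12.2%. In both Psmb5 and Psmb8 the 95% interval of the difference between PRP and PPP included 0.

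Of the factors that assemble the alpha ring, Psmg3 and Psmg4, which act as a pair, had opposite signs. Psmg3 had 6.13 and 6.12 on the PRP arrays, against 5.65 and 5.88 on the PPP arrays. Psmg4 had 6.78 and 6.83 on the PRP arrays, against 7.16 and 6.89 on the PPP arrays. The groups did not overlap in either, but neither passed: the difference was 0.36 (SE 0.12, adjusted p 0.242 by limma) for Psmg3 and -0.22 (SE 0.13, adjusted p 0.473) for Psmg4. That of Psmg4 was -0.08 without PPP replicate 1 and -0.36 without PPP replicate 2. Psmg2, which works with Psmg1, had 7.23 and 7.17 on the PRP arrays and 7.32 and 7.16 on the PPP arrays. Psme4, the activator PA200, had 7.47 and 7.56 on the PRP arrays and 7.43 and 7.51 on the PPP arrays. Psmf1, the inhibitor PI31, had 7.30 and 7.18 on the PRP arrays and 7.44 and 7.28 on the PPP arrays, also overlapping.

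The 6 genes that entered by their symbol and are kept apart are given for completeness. Psmc3ip, a cofactor of homologous recombination, had 7.002 and 7.17 on the PRP arrays, against 6.71 and 6.81 on the PPP arrays. The groups did not overlap, as in 46.4% of all named probe sets, and the difference of 0.33 (SE 0.12) had an adjusted p of 0.258 by limma. Psme3ip1, which binds the activator Psme3, had 6.83 and 6.87 on the PRP arrays and 6.82 and 6.59 on the PPP arrays. The copy Psmb6l1 had 8.69 and 8.73 on the PRP arrays and 8.65 and 8.76 on the PPP arrays, and reads as steady as Psmb6. Its probes may match Psmb6 as well, which was not tested. Psmb3l2 was near the low end, at 1.67 and 2.34 with PRP and 2.47 and 2.29 with PPP, and Psma6-ps1 likewise, at 1.81 and 1.93 with PRP and 1.85 and 1.73 with PPP. Psmd1-ps1 had 4.27 and 4.32 on the PRP arrays and 4.42 and 4.31 on the PPP arrays.

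**Figure D3:**
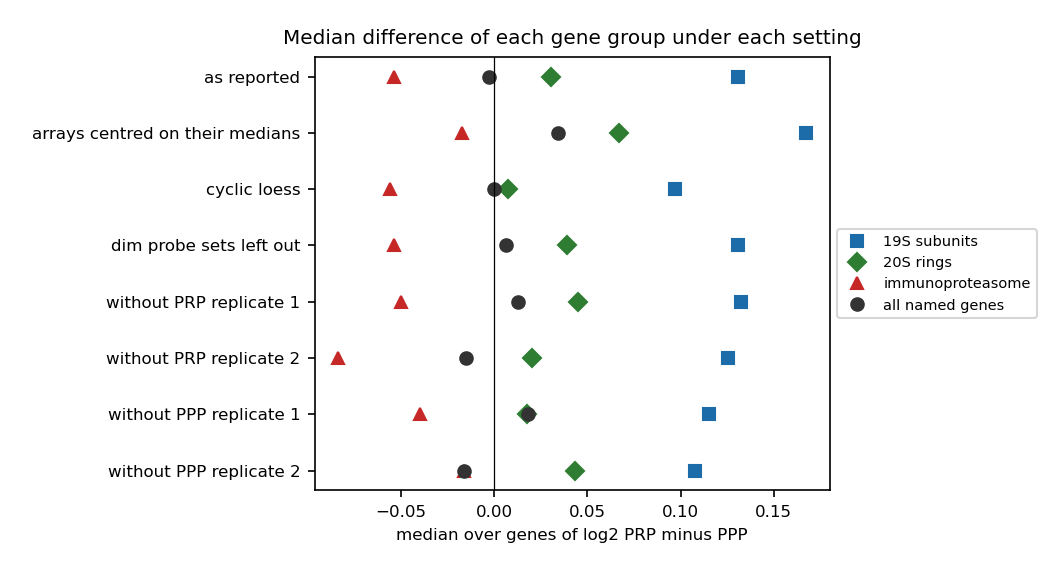
Median over genes of log2 PRP minus PPP (x axis) for the 14 subunits of the 19S cap, the 13 of the 20S rings, the 4 of the immunoproteasome and all named genes, as reported and under scalings, a filter or 1 array left out (rows). The median of the cap stayed between 0.097 and 0.17, that of the immunoproteasome between -0.084 and -0.016.

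Genes that work with the proteasome were counted over 6 lists, of which 65 genes were measured, and limma called 0 of them at an adjusted p of 0.05 (3 at an unadjusted p below 0.05, and 1, Ubqln2, with an intensity trend, which called 5.45% of all named probe sets). Beside the count of positive differences in each list stands a share of 49.4% over all named genes. Over the 10% of genes with the highest levels that share was 57.5%. Of 13 measured proteasome cofactors 10 had positive differences, with a median of 0.11. Ubqln2, a shuttle that carries ubiquitinated proteins to the cap, had 7.75 and 7.82 on the PRP arrays, against 7.33 and 7.26 on the PPP arrays. Its groups were clearly apart. The log2 difference was 0.49 (SE 0.11), which limma gave an adjusted p of 0.110. Uchl5, a deubiquitinase bound to the cap, had 7.31 and 7.38 on the PRP arrays, against 6.65 and 7.05 on the PPP arrays, and an adjusted p of 0.212. Its difference of 0.50 was 0.30 without PPP replicate 1. Pomp and Adrm1, a maturation factor of the core and a ubiquitin receptor of the cap, had differences of 0.02 and 0.01.

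Among 10 measured regulators of proteasome genes 6 had positive differences, with a median of 0.07. Ddi2, the protease that activates Nfe2l1, had 5.78 and 5.80 on the PRP arrays and 5.48 and 5.59 on the PPP arrays, and did not pass (adjusted p 0.322 by limma). Nfya, a subunit of the CCAAT-binding factor NF-Y, had 5.49 and 5.43 on the PRP arrays, against 5.13 and 5.39 on the PPP arrays. Its difference of 0.20 was 0.07 without PPP replicate 1. Nfe2l2 had a difference of 0.10. Of 8 measured genes of ubiquitin activation and transfer 7 were positive, with a median of 0.14. The 2 with the smallest p, the ubiquitin-conjugating enzyme Ube2d1 and the activating enzyme Uba6, had log2 differences of 0.27 and 0.19 (adjusted p 0.456 and 0.490 by limma). That of Ube2d1 was 0.07 without PPP replicate 2, and that of Uba6 0.10 without PPP replicate 1. Of 10 measured genes of the p97 segregase, which pulls proteins out of membranes and complexes, 6 were positive, with a median of 0.10. Yod1 and Faf2, a deubiquitinase and an adaptor of p97, had -0.22 and -0.19, which were -0.13 without PPP replicate 2 and -0.08 without PRP replicate 2.

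The lists around the immunoproteasome showed no common direction. Of 13 measured genes of antigen processing 5 were positive, with a median of -0.03. Erap1, which trims peptides in the endoplasmic reticulum, had 7.30 and 7.53 on the PRP arrays, against 7.71 and 7.67 on the PPP arrays, and the class I gene RT1-M3-1 had a difference of -0.27 (adjusted p 0.357 and 0.511 by limma). The difference of Erap1, also -0.27, was -0.15 without PRP replicate 1, and that of RT1-M3-1 was -0.09 without PRP replicate 2. Of 11 measured genes of the interferon gamma axis 7 were positive, with a median of 0.02. Jak2, a kinase of the interferon gamma receptor, had 6.65 and 6.60 on the PRP arrays, against 6.86 and 7.22 on the PPP arrays. The log2 difference was -0.41, which limma gave an adjusted p of 0.256. It was -0.23 without PPP replicate 2. Ifngr1, the ligand-binding chain of that receptor, had 7.68 and 7.68 on the PRP arrays, against 7.29 and 7.60 on the PPP arrays. Its difference of 0.24 was 0.08 without PPP replicate 1.

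**Figure D4:**
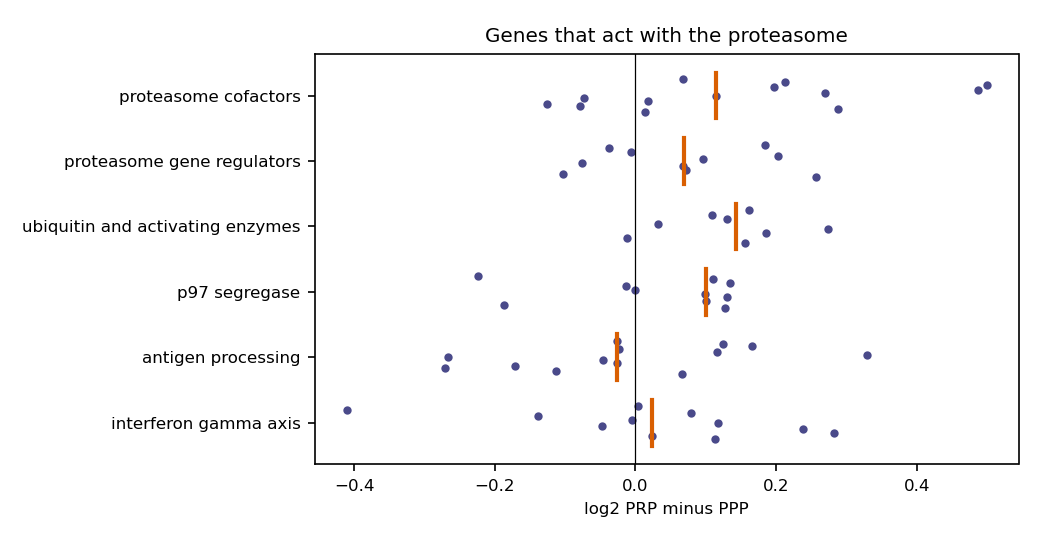
Difference of each measured gene, log2 PRP minus PPP (x axis), in 6 lists of genes that act with the proteasome (rows), with each list's median as an orange bar. The medians run from -0.03 for antigen processing to 0.14 for ubiquitin and activating enzymes, and the points farthest to the right are Ubqln2 and Uchl5.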

How the data were processed

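RNA was amplified as cDNA and biotinylated before hybridization, per the labels' protocols. The tools listed in the submitters' processing notes are RMA, oligo and limma, without versions or roles. The deposited log2 values (36685 probe sets, 0.861 to 12.3) have the form of RMA values, so a low value cannot be told from background and a change in total RNA would not show. The genome build is not given in the sources used here. Gene symbols came from the platform's table in GEO, and all 46 members were found in the GRCr8 gene table.

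Limma 3.58.1 in R 4.3.3 (lmFit, eBayes, no trend, two-sided, Benjamini-Hochberg) was fitted over all 14824 single-symbol probe sets, with 2 residual and 3.87 prior degrees of freedom. It was also run on values simulated from its own fitted variances, which cannot show how well the model holds for these arrays. Group medians use the brightest probe set of a gene. Replicates correlated at 0.995 (PRP) and 0.994 (PPP) across probe sets, groups at 0.987 to 0.990. The labels say nothing that pairs the replicate numbers, so they were not taken as pairs. Deviations of same-numbered arrays correlated at 0.0056, which does not show that the arrays are unpaired. The number of arrays limits the precision. Named were the immunoproteasome subunits, called members, the catalytic subunits, and in each class the 2 highest and the lowest difference, and of each of 6 lists the 2 smallest p; Pomp, Adrm1, Nfe2l2, the cell type markers and the remaining members were added after their values were seen. Members and lists were chosen with earlier results of these data known. Levels are compared only within a probe set.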

Additional observations from a re-analysis of the deposited data

How the results depend on the processing

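The single call, Psmd10, was kept with robust eBayes, an intensity trend, dim probe sets left out, median centring and cyclic loess. With all 36685 probe sets fitted, 0 members were called (Psmd10 adjusted p 0.218 by limma). With a replicate block 0 were called (0.0885). Leaving out each array in turn gave 0 calls and adjusted p between 0.0977 and 0.234. These fits have fewer residual degrees of freedom or more probe sets, and over all named probe sets they gave 123 calls with the block and 56 to 81 with 1 array left out, against 274 as reported. The trend gave 808 calls and the fit of all probe sets 2. The members' median difference was 0.099 after median centring, which shifts all genes by 0.037, and 0.047 to 0.095 with 1 array left out. That of the immunoproteasome was -0.017 after centring and -0.084 to -0.016 with 1 array left out. The immunoproteasome kept 0 calls in every fit. Ubqln2 passed with an intensity trend (adjusted p 0.0120). Of the 32 members and the 2 genes of smallest p in each of the 6 pathway lists that were recomputed (low members drop out with dim probe sets), no other changed its call, the replicate block included.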

Other observations

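Of the members, 6 genes had a gene starting on the opposite strand within 1000 bases upstream of their start. The start of Psmd10 lies 223 bases from that of Atg4a, an autophagy protease, which was not analysed here. Tap1, the peptide transporter whose start lies 457 bases from that of Psmb9, had 4.38 and 4.42 on the PRP arrays and 4.41 and 4.43 on the PPP arrays. Ftsj3, next to Psmc5, had 6.94 and 7.06 on the PRP arrays, against 5.64 and 6.41 on the PPP arrays, 0.98 apart on the log2 scale, which missed the threshold (limma's adjusted p 0.146). Sirt3, next to Psmd13, and Cep76, next to Psmg2, had differences of -0.06 and -0.01.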
